A study of Mus musculus with 16 samples.

Results

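The Fc gamma receptors and the phagocyte NADPH oxidase were followed here through 9 genes, taken by gene name from a count table of 47593 genes. They are the receptors Fcgr1, Fcgr3, Fcgr4 and Fcgr2b, the signalling chain Fcer1g, and the oxidase subunits Cybb, Cyba, Ncf1 and Ncf4. All 9 were in the table and all 9 passed the filter on low counts, among 16553 genes tested. Poly(A) RNA was sequenced from the cortex of 5xFAD mice that ate either a rapamycin diet or a vehicle diet, made with the same microencapsulation carrier, from 2 to 5 months of age. The 4 groups, with 4 libraries each, are named by sex and diet, as FC and FR for females on vehicle and rapamycin and as MC and MR for males. Every group, controls included, was heterozygous 5xFAD on a C57BL/6-SJL hybrid background, a line that carries mutant human APP and presenilin-1 transgenes under the neuronal Thy-1 promoter. No wild-type cortex was analysed here, so no level below can be set against a brain without plaques.

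Fc gamma receptors bind the constant part of immunoglobulin G and let a phagocyte recognise what antibodies have coated. In mice, Fcgr1, Fcgr3 and Fcgr4 are activating receptors that signal through the shared chain encoded by Fcer1g, whereas Fcgr2b is the inhibitory member of the family. The phagocyte oxidase transfers electrons from NADPH to oxygen inside the phagosome. Its membrane core, cytochrome b558, consists of the catalytic subunit gp91phox (Cybb) and its partner p22phox (Cyba), and cytosolic subunits, among them p47phox (Ncf1) and p40phox (Ncf4), join it on activation. In the brain, both systems are mostly carried by microglia and other myeloid cells.

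The libraries held 16393501 to 20593089 counted read pairs. They came in 2 batches, 11 libraries in the first and 5 in the second (FC4, FR4, FR5, MC4 and MR4), and batch accounted for 81.2% of the variance along the first principal component. The library labelled MR4 did not match its label, with Xist at 512 CPM (counts scaled to library size with TMM factors) and no count for 4 Y-linked genes, while the other male libraries had Xist at 1.01 CPM or less. MC4 held more choroid plexus RNA than any other library, with 5 marker genes summing to 1920 CPM. Results were therefore also computed without MC4 and the library labelled MR4. The defining microglial markers (Cx3cr1, P2ry12, Tmem119 and 9 more) summed to between 369 and 930 CPM in every library. All 8 monocyte and neutrophil markers and all 5 markers of B and natural killer cells averaged under 1 CPM. Among the first of these lists, MR2 stood apart with a sum of 12.7 CPM, mostly S100a8 and S100a9. In whole cortex, fewer cells of a type and less RNA per cell cannot be told apart.

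Fcgr2b, Fcgr4, Fcgr3 and Fcer1g are neighbours on chromosome 1 (GRCm38). Fcgr2b lies at chr1:170958617-170976547 on the minus strand, Fcgr4 at chr1:171018920-171029761 on the plus strand, Fcgr3 at chr1:171051174-171064935 and Fcer1g at chr1:171229572-171234365, both on the minus strand. Fcgr1 is on chromosome 3 (96282909 to 96293969), Cybb on chromosome X (9435252 to 9487771), Cyba on chromosome 8 (122424772 to 122432940), Ncf1 on chromosome 5 (134220053 to 134229625) and Ncf4 on chromosome 15 (78244801 to 78262580). Counting did not use strand. Of the exon bases of Ncf1, 11.1% overlapped Gtf2ird2, and of those of Fcgr2b, 2.68% overlapped the antisense gene Gm38204, so reads there were ambiguous between the genes. In GENCODE transcripts, 2.54% of the 100-base windows of Fcgr3 were identical to Fcgr2b, which limits how far the pair could be separated in those windows.

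Sequence before the start of each receptor gene is shown because the promoters of the activating receptors shared a short motif that the promoter of the inhibitory receptor lacked. The motif is GAGGAA, a sequence bound by PU.1, a transcription factor of myeloid cells. It was searched on both strands of RefSeq promoters (250 bases before to 50 after the start, GRCm38.p6). Shorter forms such as GGAA, which the Fcgr2b stretch below does contain, were not counted. It occurred in 28.3% of 32851 promoters. Of the 9 genes, 8 had a promoter in the table and 4 of them held the motif, namely Fcgr1, Fcgr3, Fcgr4 and Cybb. In Cybb it lay after the start, outside the stretch printed. Capitals mark the motif, which reads TTCCTC on the strand shown, and each sequence runs 5′ to 3′ on the strand of its gene, without exon sequence of that gene.
Fcgr1: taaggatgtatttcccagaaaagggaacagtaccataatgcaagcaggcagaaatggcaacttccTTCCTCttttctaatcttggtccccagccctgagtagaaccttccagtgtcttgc
Fcgr3: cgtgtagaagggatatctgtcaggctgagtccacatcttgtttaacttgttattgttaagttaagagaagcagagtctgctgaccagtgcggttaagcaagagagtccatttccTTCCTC
Fcgr4: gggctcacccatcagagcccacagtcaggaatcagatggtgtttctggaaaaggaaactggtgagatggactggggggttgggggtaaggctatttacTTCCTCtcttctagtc
Fcgr2b: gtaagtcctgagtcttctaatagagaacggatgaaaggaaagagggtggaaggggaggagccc
Cybb: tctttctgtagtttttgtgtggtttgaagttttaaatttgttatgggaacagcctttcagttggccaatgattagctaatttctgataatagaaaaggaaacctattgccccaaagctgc
These lie at chr3:96293970-96294089 (minus), chr1:171059404-171059523 (minus), chr1:171018806-171018919 (plus), chr1:170976128-170976190 (minus) and chrX:9469325-9469444 (minus). The motif began 55 bases before the start of Fcgr1, 22 before that of Fcgr4 and 6 before that of Fcgr3. The stretch printed for Fcgr2b is only 63 bases, beginning 119 before its start, and it stops short of those positions. The lack of the motif in Fcgr2b therefore rests on the search of its whole promoter, with 0 matches, and not on the stretch printed. A match describes letters only, and these counts do not measure binding.

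Levels between genes were compared per kilobase of exon, in CPM per kb over all 16 libraries. Cyba (15.5 ± 5.26, SD, n = 16), Fcer1g (15.2 ± 5.43) and Fcgr3 (12.8 ± 4.12) were the most abundant members. Cyba was above Fcer1g in 9 of 16 libraries, so the order of this pair did not exceed the spread, whereas Fcgr3 was above the next gene, Fcgr1, in 16 of 16. Fcgr1 (2.81 ± 0.917), Ncf1 (2.36 ± 0.580) and Fcgr2b (1.46 ± 0.654) were intermediate. Ncf4 (0.602 ± 0.169), Fcgr4 (0.432 ± 0.209) and Cybb (0.362 ± 0.159) were lowest, and their order was not fixed, with Ncf4 above Fcgr4 in 12 and Fcgr4 above Cybb in 11 of 16 libraries. On this scale the mean of the catalytic subunit Cybb was the lowest of the 9 and that of its membrane partner Cyba the highest. The rarest members rested on few reads. Counts ran from 8 to 75 for Cybb, where the lowest has an exact 95% Poisson interval of 3.45 to 15.8, from 10 to 33 for Ncf4 and from 0 to 20 for Fcgr4. The count of 0 for Fcgr4 in MC1 allows a level of up to 0.178 CPM (3 counts). These intervals cover counting error only.

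**Figure D1:**
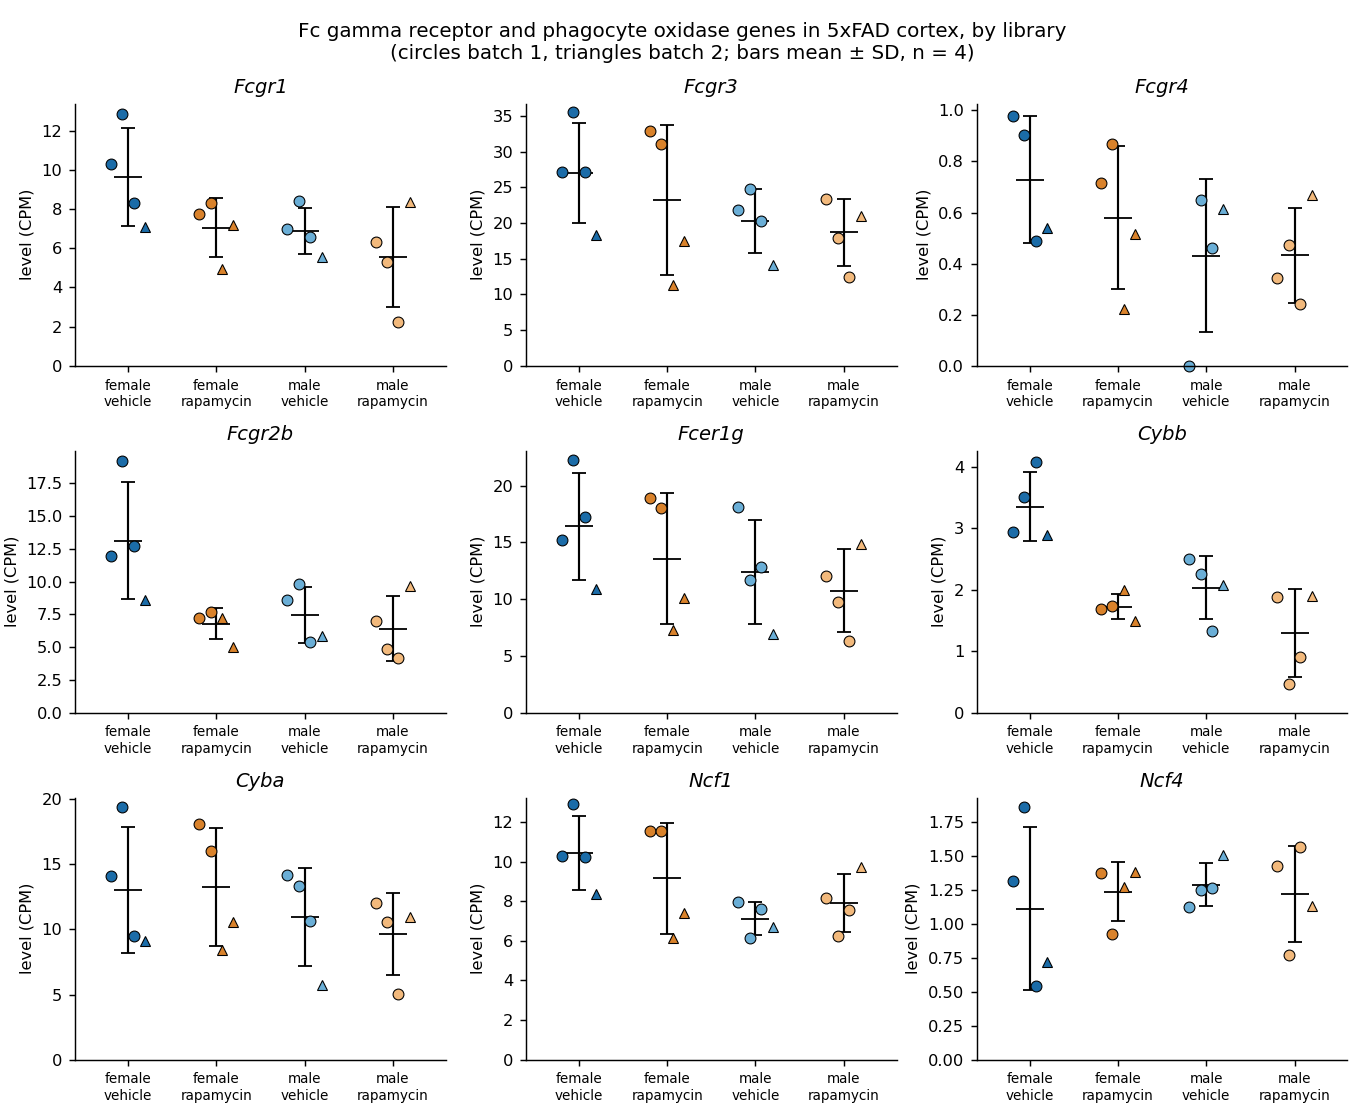
Level of each of the 9 genes in CPM (vertical axes, from 0) in the 4 libraries of each group, with circles for the first batch, triangles for the second, and bars for the mean ± SD. Cybb and Fcgr2b are lower in every FR library than in any FC library, with Cybb at 1.49 to 1.99 against 2.89 to 4.08 CPM, and the other 7 genes overlap between these groups.

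The activating receptors did not pass the test for diet. Fcgr1, which encodes the high-affinity receptor, was at 10.3, 12.8, 8.32 and 7.09 CPM in FC and at 7.75, 8.32, 4.92 and 7.20 CPM in FR. It was at 6.96, 8.41, 6.57 and 5.54 CPM in MC and at 6.29, 5.28, 2.23 and 8.34 CPM in MR. The female groups overlapped between 7.09 and 8.32 CPM, and the male groups overlapped in part, with MR2 and MR3 below every MC library and the library labelled MR4 the highest of its group. With rapamycin its log2 fold change over both sexes was -0.36 (SE 0.21, edgeR adjusted p = 0.261). Fcgr3, a low-affinity receptor and the most abundant of the 4, was at 27.2, 35.5, 27.1 and 18.3 CPM in FC and at 33.0, 31.1, 11.3 and 17.5 CPM in FR. In MC it was at 21.9, 24.8, 20.4 and 14.2 CPM, and in MR at 23.4, 18, 12.4 and 21 CPM. Both female groups split by batch, with the second-batch libraries FC4, FR4 and FR5 at the bottom, and no group stood clear of another. The log2 fold change was -0.09 (95% interval -0.43 to 0.25, edgeR adjusted p = 0.753). Fcgr4 never exceeded 0.977 CPM, and its interval of -1.05 to 0.71 on the log2 scale leaves its response to diet unresolved at this depth.

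Fcer1g, whose product the activating receptors need for surface expression and signalling, did not pass either. It was at 15.2, 22.3, 17.2 and 10.9 CPM in FC and at 18.9, 18, 7.25 and 10.1 CPM in FR. In MC it was at 18.1, 11.7, 12.8 and 6.93 CPM, and in MR at 12.1, 9.72, 6.34 and 14.9 CPM. All groups overlapped. Its log2 fold change was -0.14 (95% interval -0.57 to 0.30, edgeR adjusted p = 0.693).

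Fcgr2b, the inhibitory receptor, was at 12, 19.2, 12.7 and 8.6 CPM in FC and at 7.24, 7.67, 7.25 and 5.04 CPM in FR. Every FR library was thus below every FC library, a pattern found in 3.65% of all genes tested. The male values were 8.62, 9.86, 5.42 and 5.87 CPM in MC and 6.98, 4.86, 4.16 and 9.68 CPM in MR. These male values overlapped (3.3% of all genes had every MR library below every MC library), and the highest MR value came from the library labelled MR4. The log2 fold change over both sexes was -0.55 (SE 0.22, edgeR adjusted p = 0.0982), which did not pass. The call depended on the processing. In 4 of 8 other settings Fcgr2b still did not pass, and with the trend on exon length as a covariate the edgeR adjusted p was 0.914. When single libraries were left out, it passed in 1 of 16 edgeR fits, with an adjusted p of up to 0.193 without FR1. Fcgr2b passed with DESeq2 (adjusted p = 0.0479), with no filter on low counts in edgeR (0.0154) and in the first batch alone (log2 fold change -0.76, edgeR adjusted p = 0.0435), and it passed in edgeR without the library labelled MR4 (0.0241). Fcgr2b and Cybb were both chosen by the study on these same samples, so their direction is not independent evidence.

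Among the oxidase genes, only Cybb passed. Cybb was at 2.93, 3.51, 4.08 and 2.89 CPM in FC and at 1.68, 1.74, 1.99 and 1.49 CPM in FR, with no overlap. Males had 2.50, 2.25, 1.33 and 2.07 CPM in MC and 1.89, 0.474, 0.905 and 1.91 CPM in MR. The male groups overlapped, because MC3 was low and MR1 and the library labelled MR4 were close to the control values. Over both sexes Cybb fell by 0.83 on the log2 scale with rapamycin (SE 0.24, to 0.563 of the vehicle level, edgeR adjusted p = 0.0328). It was the only one of the 9 genes to pass, where 13.3% of all genes tested passed and 6.86% passed as lower. It also met a fold change of at least 1.5, the added threshold for a differentially expressed gene, as did 2.26% of all genes.

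The call for Cybb was near the threshold. When single libraries were left out, it passed in 7 of 16 fits, and the edgeR adjusted p reached 0.0746 without FR1. It was above 0.05 as well without FC2 (0.0552), FC3 (0.0641), FR2 (0.0673), FR5 (0.0598), MC1 (0.0560), MC2 (0.0546), MC4 (0.0552) or MR2 (0.0598), while the log2 fold change stayed between -0.98 and -0.70. The call was also lost with no batch term (-0.81, edgeR adjusted p = 0.0929), with the replicate number as a block in place of batch (-0.82, 0.0623) and with the trend on exon length as a covariate (-0.49, 0.951). In the first batch alone the fold change was -0.96 (edgeR adjusted p = 0.0649), and without both MC4 and the library labelled MR4 it was -0.91 (0.0483). MR2, the library with the lowest Cybb, was also the one with S100a8 and S100a9. Both encode neutrophil proteins, and their part in the result was not tested.

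The other oxidase subunits showed no difference that passed. Cyba was at 14.1, 19.4, 9.52 and 9.08 CPM in FC and at 18.1, 16, 8.41 and 10.6 CPM in FR. Its values were 14.2, 13.3, 10.6 and 5.76 CPM in MC, and in MR they were 12, 10.6, 5.07 and 11 CPM. The groups overlapped, and the log2 fold change over both sexes was 0.03 with a 95% interval of -0.39 to 0.44 (edgeR adjusted p = 0.943). Ncf1, the organiser subunit, was at 10.3, 12.9, 10.2 and 8.36 CPM in FC and at 11.5, 11.5, 6.14 and 7.40 CPM in FR. In MC it was at 7.97, 6.16, 7.61 and 6.71 CPM, and in MR at 8.18, 6.23, 7.54 and 9.73 CPM. Its log2 fold change was 0.01 (95% interval -0.28 to 0.31, edgeR adjusted p = 0.959), an interval that does not reach the fall of Cybb. Ncf4 ranged from 0.544 to 1.87 CPM over the FC libraries, a wider range than in the other groups, and its log2 fold change was 0.04 (95% interval -0.49 to 0.57). The signs of Cyba, Ncf1 and Ncf4 turned under several settings and carry no direction.

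**Figure D2:**
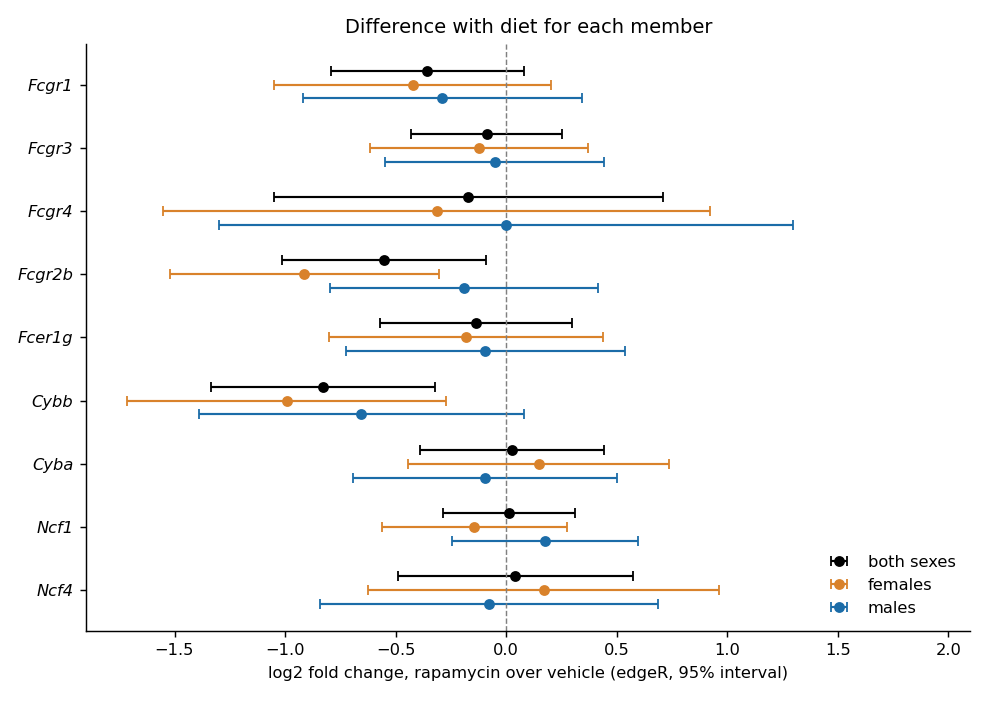
Log2 fold change of each gene with rapamycin (horizontal axis, edgeR, with 95% intervals) over both sexes in black, in females in orange and in males in blue. The intervals of Cybb and Fcgr2b lie below 0 over both sexes and in females, and those of the other 7 genes include 0 in all 3 comparisons.

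When the sexes were separated, none of the 9 genes passed in either. In females 2 genes passed of 16553 (0.0121%), and in males 0 genes passed, with 1990 at an unadjusted p under 0.05. In females the log2 fold change was -0.91 for Fcgr2b (SE 0.29, edgeR adjusted p = 0.0869) and -0.99 for Cybb (SE 0.34, 0.104). With DESeq2 both passed in females, at adjusted p = 0.0261 and 0.0390, and both passed in edgeR without the filter on low counts. How many of all genes passed in females in those settings is not reported here. In males the values were -0.19 for Fcgr2b (SE 0.29) and -0.65 for Cybb (SE 0.35), with edgeR adjusted p = 0.809 and 0.441. The male values moved in both directions when single libraries were left out. Over the 16 such fits they ran from -0.59 to -0.0024 for Fcgr2b and from -0.93 to -0.38 for Cybb. Without the library labelled MR4 they were -0.59 for Fcgr2b and -0.92 for Cybb (edgeR unadjusted p = 0.0343 and 0.0291, adjusted p = 0.703 for both), beside female values of -0.80 and -0.93 in that fit.

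A test of the interaction of sex and diet compared the 2 responses. The interaction was -0.72 for Fcgr2b (95% interval -1.57 to 0.12, edgeR unadjusted p = 0.0883, adjusted p = 0.999) and -0.34 for Cybb (95% interval -1.36 to 0.68, adjusted p = 0.999). No gene in the table passed in this test with edgeR, and 360 genes had an unadjusted p under 0.05, so a larger response in females was not shown for either gene. Without the library labelled MR4 the interaction was -0.22 for Fcgr2b and -0.02 for Cybb. These were at 1 end of the range over the 16 fits that each left out 1 library. That range was -0.91 to -0.22 for Fcgr2b and -0.59 to -0.02 for Cybb. The vehicle groups were compared as well. The log2 difference between FC and MC was 0.81 for Fcgr2b (SE 0.28), 0.72 for Cybb (SE 0.33) and 0.55 for Ncf1 (SE 0.20), and 8 of the 9 genes were higher in FC, with Ncf4 as the exception. Of all 16553 genes tested, 8345 were lower in FC. The direction was not particular to these genes, as 0 of the 12 microglial identity markers were lower in FC. Their median difference was 0.45, beside 0.49 for the 9 genes. None passed in edgeR (adjusted p = 0.999 for each), where 0.0121% of all genes passed. Every FC library was above every MC library for Cybb and Ncf1, as for 1.03% of all genes. Both sex-specific fold changes and this difference share the control libraries, so the female fold change and the FC level are not independent.

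Whether Fcgr2b and Cybb moved with their partners was tested directly, as the log2 ratio of each gene to each partner within a library. A ratio that does not differ between diets is what a pair that moves together would give. Diet labels were permuted within batches in an exact two-sided test over all assignments, whose smallest possible p is 0.00022, and adjusted p values are over the 10 ratios computed. Of these, 9 are described here. All 9 were lower with rapamycin, and 4 passed, all of them with Cybb. Both numerators were chosen by the study on these same samples, and the ratios share them. Their signs and p values are therefore not independent evidence of a lower level.

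The log2 ratio of Cybb to Ncf1 was -1.77, -1.85, -1.30 and -1.5 in FC and -2.70, -2.65, -1.57 and -2.23 in FR. It was -1.63, -1.41, -2.43 and -1.65 in MC and -2.05, -3.44, -2.91 and -2.29 in MR. Of the rapamycin libraries, only FR4 was inside the range of FC, and MC3 was the only vehicle library below -1.85. The batch-adjusted difference was -0.85 (SE 0.22, exact permutation p = 0.00195, adjusted p = 0.00974). It was -1.02 within the first batch and -0.46 within the second, and -0.68 in females and -0.90 in males without adjustment.

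The ratio to the membrane partner Cyba was lower by the same amount, -0.85 (SE 0.28, exact permutation adjusted p = 0.0135), and that to Ncf4 by -0.94 (SE 0.37, 0.0338). Cybb also fell against the summed microglial markers, by 0.57 on the log2 scale (SE 0.16, exact permutation adjusted p = 0.0123). The ratios to Ncf1, Cyba and the microglial sum kept an adjusted p under 0.05 in 16 of 16 exact tests that left out a library, with the highest at 0.0417. The ratio to Ncf4 did so in 6 of 16, with an exact permutation adjusted p of up to 0.0875 without FC4. Within the first batch the ratios to Cyba and Ncf4 did not pass (exact permutation adjusted p = 0.0742 for both).

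For Fcgr2b, no partner ratio passed. The log2 ratio to Fcgr3 was -1.17, -0.88, -1.08 and -1.08 in FC and -2.17, -2.0, -0.63 and -1.77 in FR. It was -1.33, -1.32, -1.89 and -1.25 in MC and -1.73, -1.86, -1.55 and -1.11 in MR. In FR, 3 libraries were below all FC libraries and FR4 was above all of them. The batch-adjusted difference was -0.41 (SE 0.19, exact permutation p = 0.0491, adjusted p = 0.0819). It was -0.58 within the first batch, where it passed (exact permutation adjusted p = 0.0379), and -0.0029 within the second. The differences against Fcer1g (-0.36, SE 0.19), Fcgr4 (-0.51, SE 0.43) and the microglial sum (-0.27, SE 0.15) did not pass, and that against Fcgr1 was -0.13 (SE 0.19, exact permutation adjusted p = 0.519). A lower balance of the inhibitory receptor against the activating ones was therefore not shown over the 16 libraries, and an equal balance was not shown either.

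**Figure D3:**
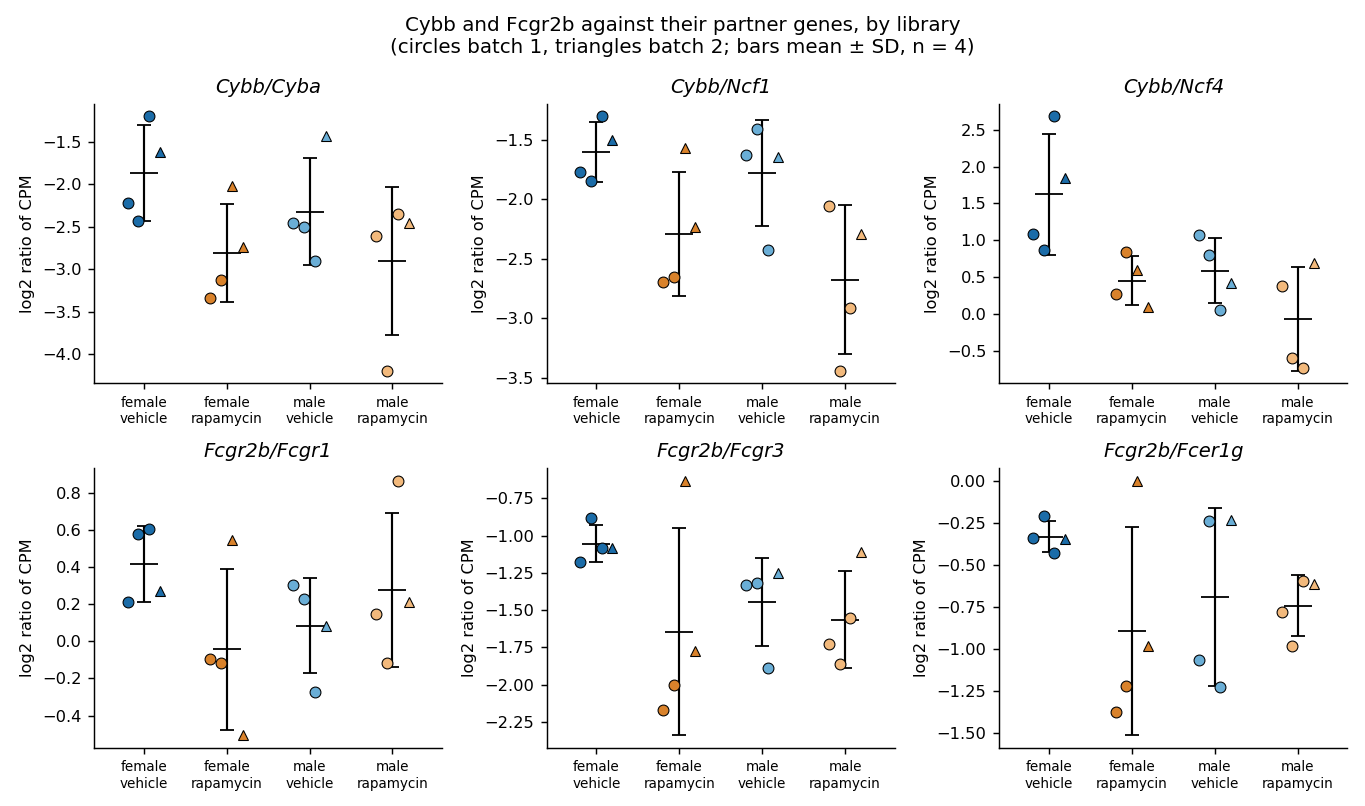
Log2 ratio of Cybb to Cyba, Ncf1 and Ncf4 (top) and of Fcgr2b to Fcgr1, Fcgr3 and Fcer1g (bottom) in each library, by group, with circles for the first batch, triangles for the second, and bars for the mean ± SD (n = 4). The ratio of Cybb to Ncf1 averages -1.69 in the 8 vehicle libraries and -2.48 in the 8 rapamycin libraries, whereas that of Fcgr2b to Fcgr1 averages 0.25 and 0.12.

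Exon length moved with diet and with these genes. Cybb (5808 bases of exon) and Fcgr2b (5790 bases) were the longest of the 9, and their partners ran from 758 bases (Cyba) and 874 bases (Fcer1g) to 3663 bases (Ncf1). Over all genes tested, the slope of a library's log2 CPM on log2 exon length averaged 0.0442 in vehicle and -0.0442 in rapamycin libraries, with ranges of 0.0004 to 0.101 and -0.127 to 0.064. The median log2 fold change with rapamycin was 0.30 for the 963 genes under 1000 bases, 0.20 for the 2397 genes from 1000 to 2000 bases and -0.05 for the 5541 genes from 4000 to 8000 bases. Of that last class, which holds Cybb and Fcgr2b, 8.19% fell.

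With the exon length slope of each library as a covariate, none of the 9 genes passed in edgeR, and the log2 fold change was -0.49 for Cybb (adjusted p = 0.951) and -0.62 for Fcgr2b (adjusted p = 0.914). The share of all genes that passed with this covariate is not reported here. When the length trend was removed from each library, an alternative added after seeing the data, the ratio of Cybb to Ncf1 was still lower by 0.78 and that to Cyba by 0.56 on the log2 scale (exact permutation adjusted p = 0.0108 and 0.0482). The ratio to Ncf4 no longer passed (-0.79, exact permutation adjusted p = 0.0905), and that of Fcgr2b to Fcer1g shrank to -0.09. How much of the lower ratios belongs to exon length was not tested beyond these values.

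**Figure D4:**
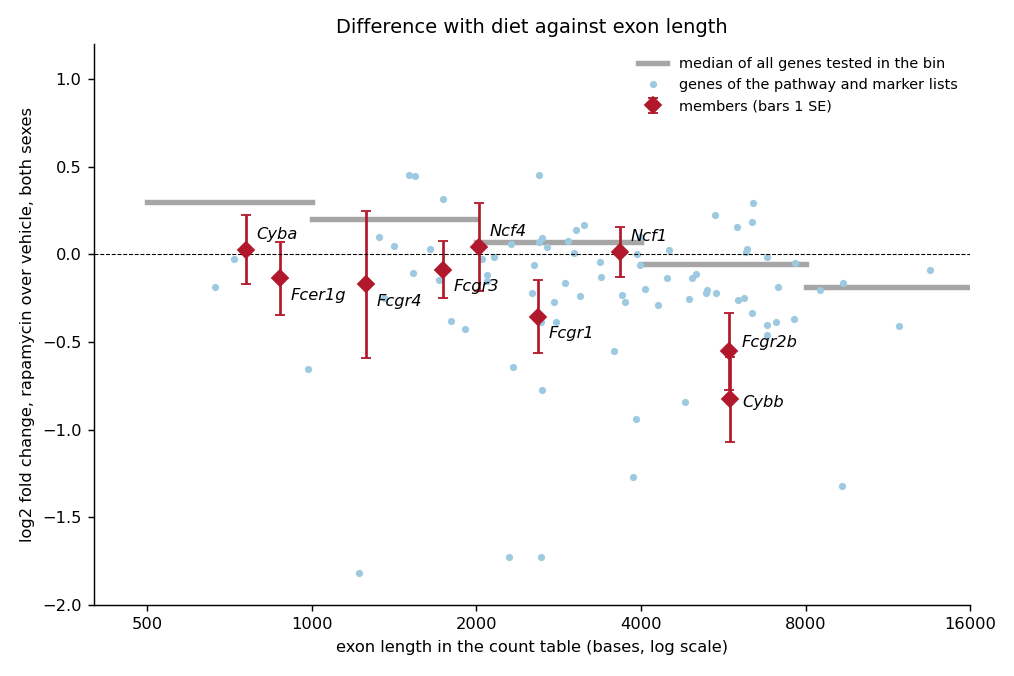
Log2 fold change with rapamycin over both sexes (vertical axis) against exon length in bases (log scale), with red diamonds for the 9 genes (bars 1 SE), blue points for tested genes of the pathway and marker lists, and grey lines for the median of all genes tested in each length class, whose outer classes are open but are drawn to the edges of the plot. Cybb and Fcgr2b, at -0.83 and -0.55, lie below the median of -0.05 for their length, while Cyba, at 0.03, lies below the 0.30 of the shortest class.

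Across the 16 libraries, log2 CPM of Fcgr2b correlated with 3 of its 4 partners. Pearson's r was 0.80 with Fcgr1 (Spearman's rho 0.82), 0.66 with Fcgr3 (rho 0.66) and 0.70 with Fcer1g (rho 0.66), with permutation p adjusted over 10 pairs of 0.00070, 0.0083 and 0.0047 for r. With Fcgr4 it was 0.30 (rho 0.49, permutation adjusted p = 0.288). Without the 2 libraries farthest from the median, r with Fcgr1 was 0.71 and with Fcgr3 0.67. With Fcer1g it was 0.52 and no longer passed (permutation adjusted p = 0.0790), so the pass over 16 libraries depended on those 2. Within the first batch, r was 0.84 with Fcgr1, 0.77 with Fcgr3 and 0.75 with Fcer1g. Over residuals from the groups and batch it was 0.72, 0.65 and 0.69.

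The correlations of Cybb with Cyba, Ncf1 and Ncf4 did not pass. Pearson's r was 0.30 with Cyba (rho 0.20, permutation adjusted p = 0.288), 0.48 with Ncf1 (rho 0.36, 0.0863) and -0.06 with Ncf4 (rho -0.16, 0.825). Within the first batch r with Cyba was 0.46 and over residuals 0.32. Both genes tracked the summed microglial markers, with r of 0.88 for Fcgr2b (rho 0.86) and 0.87 for Cybb (rho 0.73). Over residuals these were 0.80 and 0.84 (permutation adjusted p = 0.00080 for both), so the relation was present within the groups as well.

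**Figure D5:**
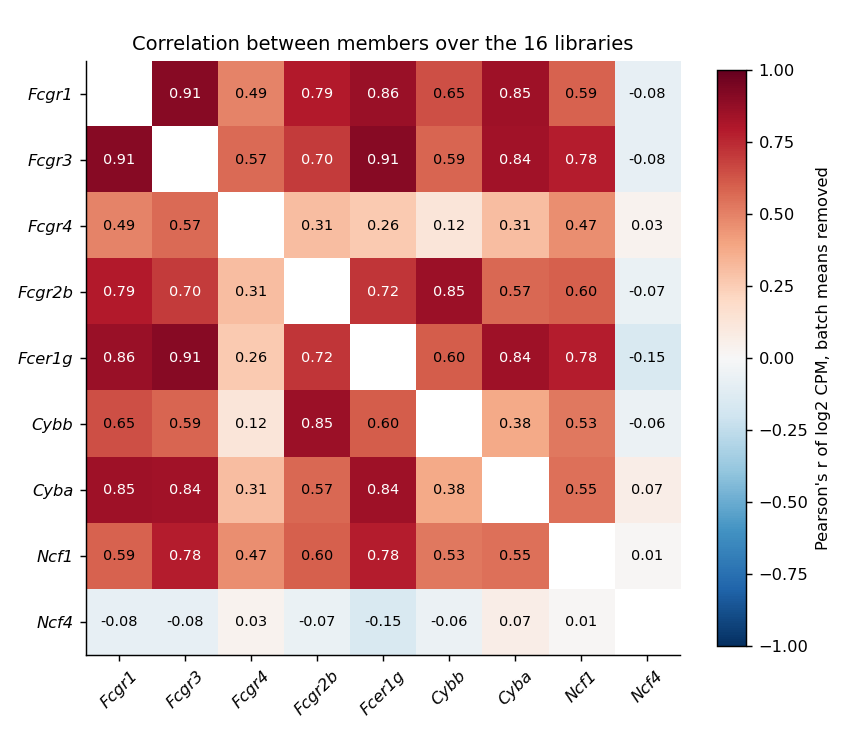
Pearson's r between the log2 CPM of each pair of the 9 genes over the 16 libraries after batch means were removed, with colour from -1 (blue) to 1 (red). Differences between diets and sexes remain in these values. Fcgr1, Fcgr3, Fcer1g and Cyba correlate at 0.84 to 0.91, Fcgr2b and Cybb at 0.85, and Ncf4 is near 0 with every other gene.

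With batch means removed, likeness between the 9 genes is given as a description. Fcgr1, Fcgr3, Fcer1g and Cyba were most alike, from 0.84 between Fcgr3 and Cyba to 0.91 between Fcgr3 and both Fcgr1 and Fcer1g. Among the 9, Cybb was closest to Fcgr2b (0.85), which ranked 41 among 16552 other genes, whereas Cyba ranked 3328 (0.38), Ncf1 1429 (0.53) and Ncf4 9149 (-0.06). Among the genes of at least 1 mean CPM, those most like Cybb were Plek (0.96), Slc15a3 (0.95), Naip2 (0.95), Tgfbr1 (0.95) and Lcp1 (0.94), with exons of 4486 to 9504 bases. Those most like Fcgr2b were Treml2 (0.92), Plcg2 (0.92), Cd180 (0.91), Ly9 (0.91) and Laptm5 (0.91), with exons of 3307 to 4509 bases. All pairs share libraries and their differences in exon length slope. Differences between diets and sexes also remain in these values. The study chose both Fcgr2b and Cybb on these samples, so their likeness is not independent of that choice.

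Genes that act downstream of Fc receptors were counted from a list of 19, all tested. The list holds Src family kinases, Syk, adaptors and the phosphatases that inhibitory receptors recruit. With rapamycin 2 of 19 fell and 0 rose, where 6.86% of all genes fell, 15 of 19 had a fold change below 0, and the median log2 fold change was -0.23 against 0.02 for all genes tested. Fgr, a Src family kinase of myeloid cells, was at 1.03, 0.679, 1.14 and 0.721 CPM in FC and at 0.510, 0.707, 0.277 and 0.257 CPM in FR. In MC it was at 0.595, 0.601, 0.288 and 0.839 CPM, and in MR at 0.0572, 0.178, 0.181 and 0.309 CPM. It was lower with rapamycin in both sexes with a small overlap, and fell by 1.27 on the log2 scale (SE 0.34, edgeR adjusted p = 0.0242). Fgr rested on 1 to 21 reads a library. Separately, it passed in neither females (edgeR adjusted p = 0.191) nor males (0.363). Inpp5d, which encodes SHIP1, the lipid phosphatase recruited by Fcgr2b, fell by 0.37 (SE 0.10, edgeR adjusted p = 0.0266). Its exons span 7602 bases. The kinases Lyn (-0.20) and Syk (-0.16), the phosphatase gene Ptpn6 (-0.38) and the adaptor Tyrobp (-0.19) did not pass.

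Of 14 further genes of the NADPH oxidase family, 13 were matched in the table, 7 were tested and 0 passed. The GTPase gene Rac2, which the phagocyte oxidase requires, had a log2 fold change of 0.14 (SE 0.24). The proton channel gene Hvcn1, whose product balances the charge that the oxidase moves, had -0.55 (SE 0.27, edgeR adjusted p = 0.174). The catalytic paralogues Nox1, Nox3, Nox4, Duox1 and Duox2 were too low to test. Of 12 other immunoglobulin receptors, 4 were tested and 1 fell, where 6.86% of all genes fell. This was Fcrls, by 0.64 (SE 0.17, edgeR adjusted p = 0.025). Fcrls encodes an Fc receptor-like protein that marks microglia in mice. Fcgrt, the neonatal Fc receptor, had 0.32 (SE 0.11, edgeR adjusted p = 0.0716).

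None of 10 myeloid transcription factor genes passed. Spi1, which encodes PU.1, had a log2 fold change of 0.04 (SE 0.18) and Irf8 of -0.38 (SE 0.19). The 12 microglial identity markers had 0 passing genes, 11 of 12 below 0 and a median of -0.24, and their sum ran from 523 to 930 CPM in vehicle and from 369 to 725 CPM in rapamycin libraries. None of the 10 markers of plaque-associated microglia passed, with a median of -0.17, nor did any of 6 tested border macrophage markers or 5 endothelial markers. Of 5 markers of choroid plexus 1 fell, Aqp1 (edgeR adjusted p = 0.0382), where 6.86% of all genes fell. Aqp1 was at 20.5 CPM in the vehicle library MC4 and at no more than 2.26 CPM in any other. All 5 had a fold change below 0, and the part of MC4 in this was not tested. The part of these marker levels in the values of Fcgr2b and Cybb was not tested beyond the ratios to the microglial sum.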

How the data were processed

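The authors trimmed reads with Trimmomatic 0.39, dropping the first 10 bases, and inspected them in FastQC 0.11.9. Alignment to GRCm38 was by HISAT2 2.2.1. Pairs were counted per gene name over exons by featureCounts 2.0.3, without strand and without multimapping pairs. The submitters' processing notes also name Trim Galore. These deposited counts, with no normalization, were the values used. The same counts deposited per group were not used. The study's text describes pooling of samples, while its figure legends give 4 mice per group, as do the 16 labelled libraries. Grouping followed the labels, and p values measure the spread between these libraries.

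The 9 genes and all lists were chosen with earlier results of these data known. All 9 genes are named, with list genes that passed or that a result turns on and the 5 genes most like Fcgr2b and Cybb. Counts were analysed in R 4.3.3 with edgeR 4.0.16 (TMM, filterByExpr with a minimum count of 10, quasi-likelihood test) with sex, batch and diet as terms, or the 4 groups and batch. Adjusted p is Benjamini-Hochberg over 16553 genes and passed means under 0.05. DESeq2 1.42.0 was an alternative. Log2 CPM for ratios and correlations had a prior count of 2, and correlations used 100000 permutations in Python 3.11.15. The edgeR test was tried on simulated counts. Libraries of a group were not duplicates (chi-square per degree of freedom 11.5 to 128). The 16 libraries held 16393501 to 20593089 counts, which limits genes near 1 CPM to about 20 reads a library. Some list genes are not reported here.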

Additional observations from a re-analysis of the deposited data

Results flagged for a closer look

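Fcgr2b in FR5 was the lowest of the FR libraries, at 5.04 CPM, and stood apart from the other 3, at 7.24 to 7.67 CPM, by more than Dixon's limit for 4 values. It was the only such value among 36 sets of 4 libraries (9 genes in 4 groups), where chance gives about 1 in 20. FR5 belongs to the second batch.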

How the results depend on the processing

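The number of the 9 genes that passed over both sexes was 1 (Cybb). It was 2 with DESeq2, 2 with no filter on low counts and 2 without MC4 and the library labelled MR4 together (Fcgr2b and Cybb each time). It was 0 with no batch term, 0 with the exon length slope as a covariate and 0 with the replicate block in place of batch, and in the first batch it was 1, Fcgr2b in place of Cybb. Numbers 4 and 5 are the second batch, so block and batch could not be fitted together. The block changed no count in the other comparisons, and 10 of 15 libraries were closest to their own number. Same-numbered libraries correlated at -0.16 to 0.67, over 0.1 in 18 of 21 pairs. Neither the labels nor all pairs tie the numbers to shared animals, so the block was kept as an alternative, and pairs numbered 4 also share a batch. Leaving out 1 library gave 0 to 2. How many of all genes passed in each of these settings is not reported here. In females the count of 0 became 2 with DESeq2 and 2 with no filter. For FC against MC it became 1 (Fcgr2b) with no filter. Of all 10 ratios computed, the 5 that passed became 4 to 8 when a library was left out, with 8 without MC3.

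Over both sexes, signs turned for Cyba, Ncf1, Ncf4 and, in 1 fit without a library, Fcgr3. Cyba had a log2 fold change of -0.076 with no batch term, -0.13 in the first batch, -0.085 with the replicate block, -0.61 with the slope covariate and -0.091 without MC4 and the library labelled MR4. Ncf1 had -0.018, -0.16 and -0.031 with no batch term, the covariate and that omission. Ncf4 had -0.021 in the first batch and -0.0084 with the block. Without single libraries Cyba ran from -0.063 to 0.17, Ncf1 from -0.088 to 0.077, Ncf4 from -0.069 to 0.18 and Fcgr3 from -0.20 to 0.010. The correlation of Cybb with Ncf4 was 0.53 without the 2 farthest libraries, 0.034 in the first batch and 0.17 over residuals. The causes were not tested. Depth limits Cybb, Ncf4 and Fcgr4.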
